A study of Mus musculus with 8 samples.

Results

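The genes described here encode cytosolic initiation factors (eIF) and elongation factors (eEF) of protein synthesis, enzymes that modify them and some others named alike. They are the protein-coding genes whose mouse symbol begins with Eif or Eef, leaving out the Eif2ak kinases and the Eif4ebp binding proteins. Of the 62 such genes in the GENCODE M21 annotation, 61 were among the 39017 gene identifiers of the count table. The exception was Eef1akmt4. Of the 61, 60 passed the filter on low counts and were tested, the exception being Eif4e1b, with at most a trace of reads in any library. They were divided into 5 elongation factor subunits that textbooks list as 5′ terminal oligopyrimidine (TOP) mRNAs, 8 other Eef genes, 9 genes of eIF2 and its exchange factor eIF2B, 14 of eIF3, 13 of eIF4, and 12 remaining Eif genes.

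The cells were fibroblasts of E13.5 mouse embryos, in 4 groups of 2 libraries, which the series' design text calls biological replicates. Control total and knockout total libraries came from unstressed cells. Control granule and knockout granule libraries came from cells given sodium arsenite (500 µM for 30 min) and then fractionated by centrifugation to enrich stress granules. In the knockout groups Mettl3, the catalytic subunit of the N6-methyladenosine (m6A) writer, had been deleted through a Cre that 4-hydroxytamoxifen activates (500 nM, applied for 48 h), and its loss was checked 7 days later. All RNA was selected for poly(A) tails. The labels name neither the promoter that drives Cre nor what the control cells received in place of the drug. Granule and total libraries differ in both stress and fraction, which cannot be told apart.

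Initiation begins when eIF2 brings the initiator tRNA to the small ribosomal subunit, on which eIF3 sits as a scaffold, and when the cap-binding eIF4 group loads the mRNA. eIF2B recharges eIF2 with GTP, and arsenite is a standard way to block that step through phosphorylation of eIF2. During elongation eEF1A delivers charged tRNAs, the eEF1B subunits recharge eEF1A, and eEF2 moves the ribosome along the mRNA. Many mRNAs of the translation machinery start with a C and a run of pyrimidines, the TOP motif, through which mTOR and Larp1 control their translation.

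Library totals ran from 67257220 to 123508539 counts, so that 3 counts corresponded to 0.0264 to 0.0441 CPM (counts scaled to the size of each library). Mettl3 was at 25.4 and 24.9 CPM in control total RNA, 15.7 and 15.4 in control granules, 6.0 and 7.35 in knockout total RNA and 5.56 and 6.38 in knockout granules. Fibroblast markers summed to between 6028 and 8963 CPM in every library, against 36.1 to 79.8 for macrophage, 49.2 to 713 for epithelial, 6.35 to 20.3 for endothelial, 5.48 to 40.0 for neural and 1.65 to 5.88 for skeletal muscle markers. Not all fibroblast markers were high: Pdgfra (1.39 to 3.47 CPM) and Thy1 (3.3 to 12.9 CPM) lay below the macrophage marker Ptprc (16.7 to 41.8 CPM). Of the epithelial markers, Krt18 alone ran from 46.9 to 707 CPM. The replicates of knockout total RNA stood apart from each other: mitochondrially encoded transcripts took 7.60% of the counts of replicate 1, against 0.807% in replicate 2. They took 6.16% and 8.81% in knockout granules and 0.590% to 0.881% in the control libraries. Among the 55 members with a mean of at least 5 CPM, 17 differed by more than 2-fold between the knockout total replicates and 2 between the control total replicates. None did so between replicates of control granules or of knockout granules. The median absolute log2 difference between replicates was 0.64 in knockout total RNA, 0.35 in control total RNA, 0.08 in control granules and 0.10 in knockout granules. The granule groups were therefore measured far more tightly than the total groups.

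The starts of a choice of genes, called or not, are shown because the elongation factors were grouped by a property of that start. Each line gives 30 bases on the strand of the gene, from 5 bases before the annotated start to 25 bases into the transcript, from the RefSeq promoter table of GRCm38.p6. Capitals mark a C followed by at least 4 pyrimidines. In Eef2 and Eif4b this run begins at bases 16 and 11 of the transcript, outside the window of 5 bases used below.
Eef1a1, chr9:78481700-78481729, minus strand: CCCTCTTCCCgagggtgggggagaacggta
Eef2, chr10:81176626-81176655, plus strand: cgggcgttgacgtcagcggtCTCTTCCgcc
Eef1b2, chr1:63176826-63176855, plus strand: gttccgccggaagtagccgaggccttgcgt
Eif3f, chr7:108934410-108934439, plus strand: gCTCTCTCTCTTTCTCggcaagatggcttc
Eif2s3x, chrX:94212627-94212656, minus strand: ttttCCTTTTCTCTCCgagcaagatggctg
Eif4g1, chr16:20672722-20672751, plus strand: gctccgCCCTCTgcgccggtcacgtggggc
Eif4b, chr15:102073768-102073797, plus strand: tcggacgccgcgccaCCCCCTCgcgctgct
Eif3a, chr19:60790669-60790698, minus strand: gcggcggcgctgccgccgcgagggaatcac
Eif5b, chr1:37998005-37998034, plus strand: ttcccacctggccggcggctctactggaga

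The RefSeq table held 47 of the 61 members. A C followed by at least 4 pyrimidines began within 5 bases of the annotated start, on the gene's own strand, in 11 of these 47 (23.4%), against 21.2% of 27025 genes of the table. Such a start was annotated for 1 of 3 elongation TOP genes, 4 of 8 eIF2 and eIF2B genes, 3 of 10 eIF3 genes and 2 of 10 eIF4 genes. None of 6 other Eef genes and 1 of 10 remaining Eif genes had one. In a window reaching 21 bases into the transcript, a choice made after the starts had been seen, 18 of 47 members (38.3%) and 38.5% of all genes held the pattern, including Eef1a1 and Eef2 among the elongation genes. The annotated starts thus did not separate the elongation factors from the eIF2, eIF3 and eIF4 genes. Which start these fibroblasts use was not tested.

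Levels of different genes were set side by side per length, as CPM per kilobase of exon (RPKM), in control total RNA. Eef1a1 (4168 RPKM) and Eef2 (2225 RPKM) were the most abundant members, followed by Eif5a (712 RPKM), Eif3h (501 RPKM) and Eif1 (493 RPKM). The elongation TOP genes ran from 76.9 to 4168 RPKM with a median of 297. The eIF3 genes had a median of 67.9 RPKM, the eIF4 genes 21.6, the eIF2 and eIF2B genes 20, the remaining Eif genes 25.6 and the other Eef genes 5.00. All members together took 3.68% and 3.44% of the counts in control total RNA, 3.42% and 3.52% in control granules, 2.71% and 3.48% in knockout total RNA and 2.42% and 2.46% in knockout granules. The elongation TOP genes alone took 2.19% and 1.88% in control total RNA, 1.73% and 1.80% in control granules, 1.46% and 2.05% in knockout total RNA and 1.09% and 1.10% in knockout granules. Both shares were lowest in the knockout granule pair.

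Eef1a1, the main eEF1A gene of fibroblasts, was at 11067 and 9713 CPM in control total RNA, 10333 and 10645 in control granules, 12779 and 10981 in knockout total RNA and 5565 and 5742 in knockout granules. The knockout granule pair lay below all 6 other libraries. These are shares of each library, in which fewer cells of a kind and less RNA per cell cannot be told apart. Eef1a1 fell 2.10-fold from knockout total RNA to knockout granules (log2 change -1.07, SE 0.27, adjusted p = 0.031), a call that was lost in 10 of 19 alternative fits. It showed no such difference in control cells (0.01, SE 0.26, adjusted p = 0.98). Between knockout and control granules its log2 difference was -0.89 (SE 0.27), which did not pass (adjusted p = 0.073). The test of whether the granule-to-total ratio differed between genotypes gave -1.09 (SE 0.37, adjusted p = 0.136).

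Eef2, the translocase, was at 8696 and 6093 CPM in control total RNA, 6209 and 6446 in control granules, 2295 and 6803 in knockout total RNA and 3752 and 3776 in knockout granules. The knockout total replicates differed by more than any pair of group means did. The knockout granule pair lay below the control granule pair without overlap, yet with a common spread the difference (log2 -0.75, SE 0.48) did not pass (adjusted p = 0.34). Eef1b2, the exchange factor that recharges eEF1A, was at 468 and 409 CPM in control total RNA, 371 and 428 in control granules, 291 and 467 in knockout total RNA and 294 and 325 in knockout granules. Eef1g, the structural subunit of that complex, was at 878 and 667, 647 and 720, 437 and 797, and 489 and 587 CPM in the same order. Both were lower in the knockout granule pair than in the control granule pair without overlap, with log2 differences of -0.37 (SE 0.29, adjusted p = 0.443) and -0.34 (SE 0.34, adjusted p = 0.54). Eef1d, another exchange subunit, was at 551 and 448 CPM in control total RNA, 462 and 521 in control granules, 406 and 494 in knockout total RNA and 455 and 503 in knockout granules. Its groups overlapped everywhere and its granule difference between genotypes was -0.04 (SE 0.25, adjusted p = 0.944). Eef1a1 was thus the only elongation TOP gene called in any comparison. From knockout total RNA to knockout granules that is 1 of 5 (20%), near the 17.6% of all genes tested.

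**Figure D1:**
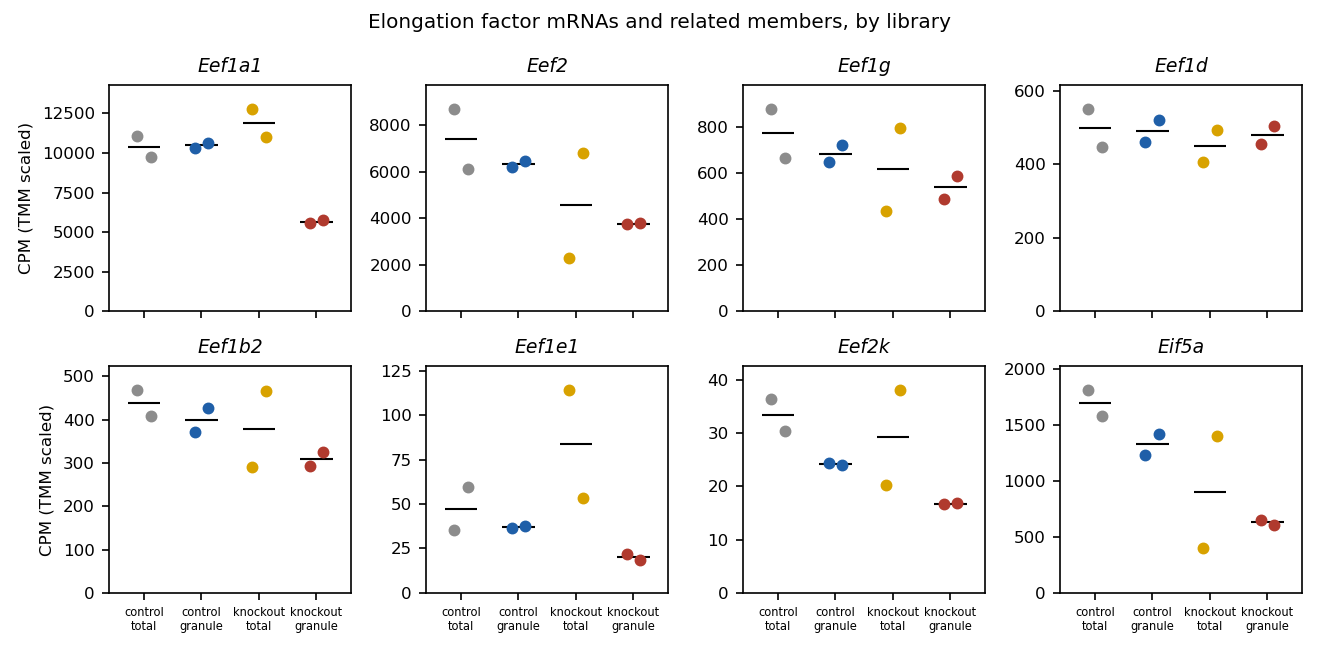
TMM-scaled CPM (vertical axis, starting at 0) of the 5 elongation TOP genes and of Eef1e1, Eef2k and Eif5a in each of the 8 libraries, by group (horizontal axis). Each point is 1 library and each bar the mean of 2. Both Eef1a1 knockout granule libraries, at 5565 and 5742 CPM, lie below the other 6, while the Eef2 knockout total libraries lie far apart at 2295 and 6803 CPM.

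Among the other Eef genes, Eef1e1 encodes a small scaffold protein of the multi-tRNA synthetase complex. It was at 35.2 and 59.7 CPM in control total RNA, 36.5 and 37.5 in control granules, 114 and 53.6 in knockout total RNA and 22 and 18.7 in knockout granules. It fell from knockout total RNA to knockout granules by 2.04 in log2 terms (SE 0.42, adjusted p = 0.0179), and its granule-to-total difference in control cells was -0.36 (SE 0.41, adjusted p = 0.586). Eef1akmt3, a lysine methyltransferase that acts on eEF1A, was scarce, at 0.588 and 0.680 CPM in control total RNA, 0.495 and 0.431 in control granules, 0.162 and 0.499 in knockout total RNA and 1.70 and 2.02 in knockout granules. Its knockout granule pair lay above the other 6 libraries. It was higher in knockout granules than in knockout total RNA by 2.50 (SE 0.52, adjusted p = 0.019) and than in control granules by 2.01 (SE 0.51, adjusted p = 0.048), both log2. Eef2k, the kinase that inactivates eEF2, was at 36.3 and 30.3, 24.4 and 24.0, 20.3 and 38.0, and 16.6 and 16.9 CPM in the same order of groups. It was called in no comparison, and its granule difference between genotypes was -0.53 (SE 0.33, adjusted p = 0.334). Eefsec, the elongation factor for selenocysteine, was at 61.1 and 49.0 CPM in control total RNA, 32.3 and 32.9 in control granules, 61.3 and 55.8 in knockout total RNA and 35.0 and 33.9 in knockout granules. Its granule libraries lay below its total libraries in both genotypes, with log2 differences of -0.76 (SE 0.25, adjusted p = 0.0855) in control cells and -0.77 (SE 0.25, adjusted p = 0.0673) in knockout cells. Neither passed.

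Eif2s3x, the X-linked gene for the GTP-binding gamma subunit of eIF2, had the smallest adjusted p of all members. It was at 26.9 and 36.6 CPM in control total RNA, 69.1 and 61.3 in control granules, 19.9 and 29.6 in knockout total RNA and 17.2 and 17.3 in knockout granules. The control granule pair stood above every other library and the knockout granule pair below every other library. Eif2s3x was 3.79-fold lower in knockout than in control granules (log2 -1.92, SE 0.31, adjusted p = 0.0126). In total RNA its genotype difference was -0.36 (SE 0.30, adjusted p = 0.456), and the difference in granule-to-total ratio was -1.56 (SE 0.42, adjusted p = 0.103). Eif2s3x has a near copy on the Y chromosome, Eif2s3y, which was at 0.728 to 1.47 CPM. How reads shared by the copies were counted is not given in the sources used here.

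Eif2s1, the alpha subunit of eIF2 that stress kinases phosphorylate, was at 68.6 and 130 CPM in control total RNA, 197 and 210 in control granules, 126 and 134 in knockout total RNA and 104 and 100 in knockout granules. Its control granule pair was the highest group, and its granule difference between genotypes of -1.0 (SE 0.32) did not pass (adjusted p = 0.0916). Eif2s2, the beta subunit, was at 97.2 and 165 CPM in control total RNA, 403 and 418 in control granules, 859 and 155 in knockout total RNA and 491 and 593 in knockout granules. Its 2 knockout total libraries were the most discordant of any of these 55 members, 2.47 apart on the log2 scale. The 3 subunits of eIF2 thus did not show 1 common pattern: between knockout and control granules they differed by -1.92 (Eif2s3x), -1.0 (Eif2s1) and 0.40 (Eif2s2, SE 0.66, adjusted p = 0.73), and only the first was called.

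In eIF2B, Eif2b1 (the regulatory alpha subunit) was at 96.1 and 79.4 CPM in control total RNA, 61.8 and 68.0 in control granules, 112 and 97.7 in knockout total RNA and 53.9 and 45.3 in knockout granules. It fell from knockout total RNA to knockout granules by 1.08 (SE 0.25, adjusted p = 0.0261), with -0.44 (SE 0.25, adjusted p = 0.283) in control cells. The regulatory beta subunit Eif2b2 was at 160 and 116, 97.9 and 107, 139 and 129, and 138 and 142 CPM in the same order. The catalytic core subunit Eif2b3 was at 31.7 and 42.1, 36.0 and 36.6, 39.5 and 35.6, and 21.8 and 21.3 CPM. Its knockout granule pair was the lowest group, with a log2 difference from control granules of -0.75 (SE 0.26, adjusted p = 0.107). The regulatory subunit Eif2b4 was at 64.6 and 47.1, 51.9 and 54.7, 22.2 and 35.4, and 54.1 and 53.2 CPM, and the catalytic subunit Eif2b5 at 183 and 138, 110 and 119, 65.3 and 119, and 74.8 and 79.3 CPM. Eif2b1 was the only one of these 5 subunits called in any comparison. From knockout total RNA to knockout granules 11.1% of the 9 eIF2 and eIF2B genes were called, against 17.6% of all genes tested.

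Eif3a, the largest scaffold subunit of eIF3, was at 272 and 422 CPM in control total RNA, 1488 and 1409 in control granules, 1021 and 461 in knockout total RNA and 1456 and 1910 in knockout granules. It was 4.18-fold higher in control granules than in control total RNA (log2 2.06, SE 0.43, adjusted p = 0.0272). In knockout cells the granule pair also lay above the total pair, with a difference of 1.18 (SE 0.42) that did not pass (adjusted p = 0.0854). The granule levels of the genotypes overlapped (0.22, SE 0.41, adjusted p = 0.767). Eif3e, another subunit with a PCI domain, was at 70.5 and 146 CPM in control total RNA, 278 and 295 in control granules, 203 and 121 in knockout total RNA and 182 and 207 in knockout granules. Its control granule-to-total difference of 1.40 (SE 0.40) did not pass (adjusted p = 0.0613). Eif3m, also a PCI-domain subunit, was at 50.7 and 78.2, 127 and 128, 86.7 and 66.7, and 80.1 and 77.9 CPM in the same order, and differed between control granules and total RNA by 0.99 (SE 0.29, adjusted p = 0.0663). For both genes the control granule pair lay wholly above the control total pair.

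In control cells the granule pair lay wholly above the total pair for 5 of 14 eIF3 genes (Eif3a, Eif3e, Eif3m, Eif3j1 and Eif3j2). That is 35.7%, against 35.2% of all genes tested. It lay wholly below for 7 (50%, against 37.3% of all genes). Eif3b, a core scaffold subunit, was at 1066 and 884 CPM in control total RNA, 1019 and 1015 in control granules, 511 and 713 in knockout total RNA and 535 and 544 in knockout granules. All 4 knockout libraries lay below all 4 control libraries, with a log2 difference in granules of -0.92 (SE 0.27, adjusted p = 0.0695) and in total RNA of -0.67 (SE 0.27, adjusted p = 0.18). Eif3c, another core subunit, was at 623 and 603, 516 and 530, 941 and 652, and 427 and 476 CPM in the same order of groups. Eif3f was at 262 and 222, 151 and 169, 177 and 227, and 170 and 184 CPM, and Eif3h at 883 and 732, 578 and 668, 505 and 594, and 527 and 514 CPM. Eif3f and Eif3h, the paired subunits with MPN domains, were both lower in control granules than in control total RNA without overlap, at -0.60 (SE 0.25, adjusted p = 0.155) and -0.37 (SE 0.25, adjusted p = 0.347). Eif3j2 was scarce, at 0.750 and 1.01, 1.97 and 2.59, 1.62 and 0.945, and 3.06 and 3.29 CPM. It was higher in knockout granules than in knockout total RNA (log2 1.30, SE 0.37, adjusted p = 0.0479), with 1.37 (SE 0.38, adjusted p = 0.0578) in control cells. The call was lost in 10 of 18 alternatives. Eif3j2 is a near copy of Eif3j1, which was at 31.5 to 159 CPM with a control granule-to-total difference of 1.27 (SE 0.47, adjusted p = 0.117), and reads of the copies may have been split between them.

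Eif4g1 encodes the main eIF4G scaffold, which bridges the cap-binding protein and eIF3. It was at 1302 and 1295 CPM in control total RNA, 2384 and 2177 in control granules, 1077 and 1453 in knockout total RNA and 1144 and 1066 in knockout granules. The control granule pair alone stood apart. Eif4g1 was 2.06-fold lower in knockout than in control granules (log2 -1.05, SE 0.26, adjusted p = 0.046), while the total RNA groups overlapped (-0.04, SE 0.26, adjusted p = 0.938). The excess of control granules over control total RNA (0.81, SE 0.26) did not pass (adjusted p = 0.0831), nor did the difference in ratio between genotypes (-1.01, SE 0.37, adjusted p = 0.149). The granule calls of Eif4g1 and of Eif4b were each lost in 10 of 19 alternatives.

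Eif4b, an activator of the eIF4A helicase, was at 783 and 668 CPM in control total RNA, 1050 and 1009 in control granules, 426 and 616 in knockout total RNA and 485 and 485 in knockout granules. It was 2.12-fold lower in knockout than in control granules (log2 -1.09, SE 0.27, adjusted p = 0.0454), and in total RNA the knockout pair lay below the control pair by -0.48 (SE 0.27, adjusted p = 0.294). Eif4a2, a paralog of the helicase, was at 77.2 and 154 CPM in control total RNA, 308 and 277 in control granules, 175 and 169 in knockout total RNA and 134 and 106 in knockout granules. It was 2.53-fold higher in control granules than in control total RNA (log2 1.34, SE 0.35, adjusted p = 0.0494). After a trend on GC content was removed from each library that difference was 0.49 and did not pass (adjusted p = 0.31), and 12 of 19 alternatives lost the call. The knockout granule pair of Eif4a2 lay below its knockout total pair (-0.52, SE 0.34, adjusted p = 0.324). Its genotype difference in ratio was -1.86 (SE 0.49, adjusted p = 0.0989) and its granule difference -1.29 (SE 0.35, adjusted p = 0.0572). Of the exonic bases of Eif4a2, 13.3% lie under other genes, several of them small nucleolar RNAs. Eif4a1, the abundant helicase paralog, was at 1007 and 959, 1143 and 1153, 791 and 843, and 791 and 755 CPM in the same order, and its granule difference between genotypes was -0.57 (SE 0.23, adjusted p = 0.157).

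Eif4e, the cap-binding protein, was at 69.7 and 94.8 CPM in control total RNA, 146 and 149 in control granules, 423 and 107 in knockout total RNA and 96.8 and 87.1 in knockout granules. Its genotype difference in ratio of -2.37 (SE 0.77) did not pass (adjusted p = 0.125) and takes in the 423 CPM of knockout total replicate 1. Eif4g2, an eIF4G relative that does not bind the cap protein, was at 359 and 588 CPM in control total RNA, 939 and 925 in control granules, 1203 and 492 in knockout total RNA and 341 and 312 in knockout granules. Its knockout granule pair was the lowest group and lay below its control granule pair (log2 -1.51, SE 0.44, adjusted p = 0.0689). The difference in ratio was -2.35 (SE 0.61, adjusted p = 0.0987). Neither difference of Eif4g2 passed.

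**Figure D2:**
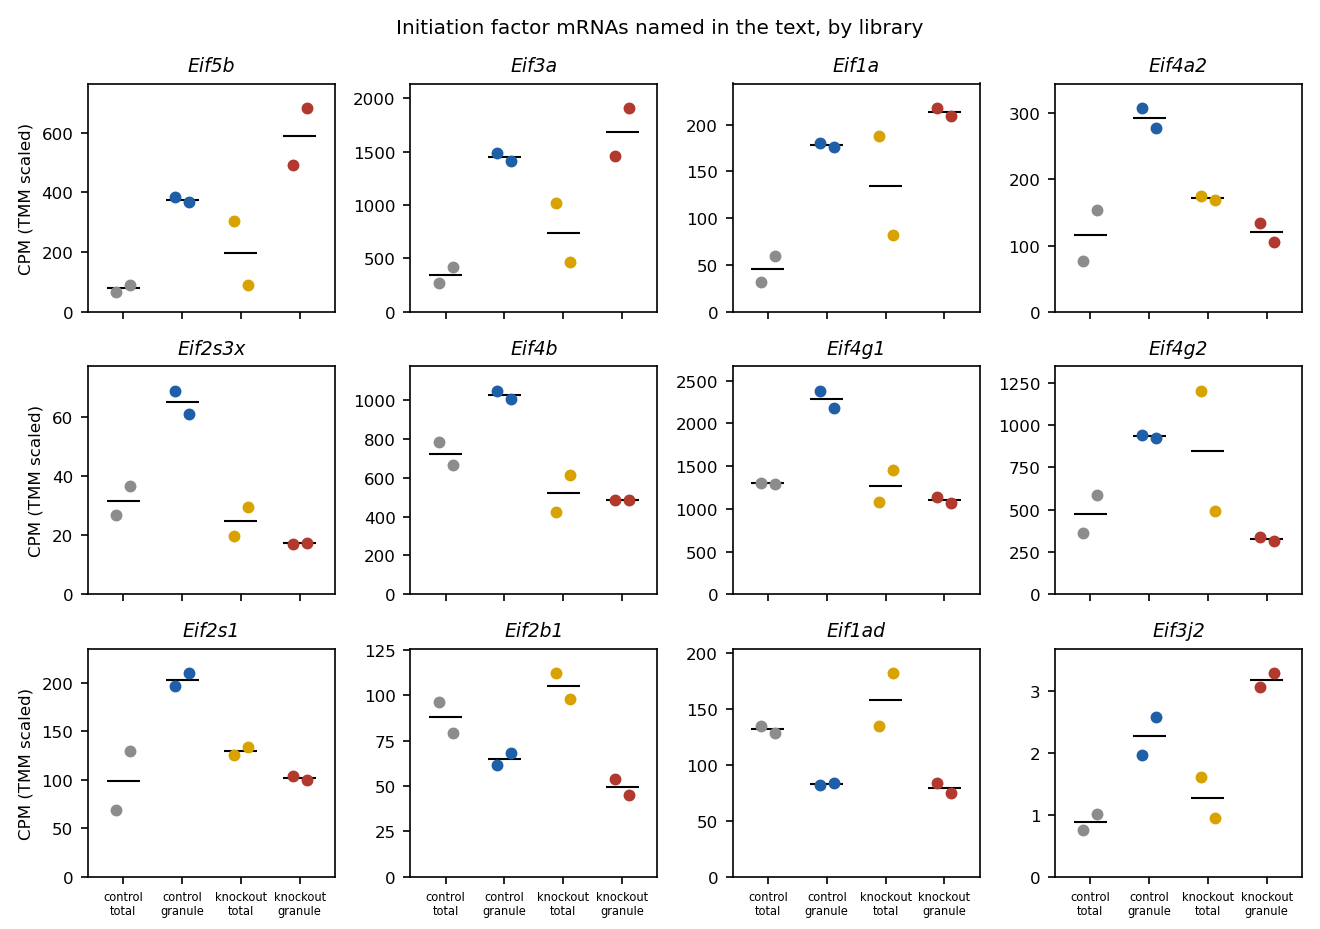
TMM-scaled CPM (vertical axis, starting at 0) of selected initiation factor genes in each of the 8 libraries, by group (horizontal axis). Each point is 1 library and each bar the mean of 2. Of these, Eif2s3x, Eif4g1, Eif4b, Eif4a2 and Eif2s1 are highest in both control granule libraries. The granule libraries of both genotypes lie above all total libraries for Eif3a, Eif5b and Eif3j2.

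Eif5b, the GTPase that joins the ribosomal subunits, had the largest difference between control granules and control total RNA among the members. It was at 67.1 and 90.0 CPM in control total RNA, 383 and 368 in control granules, 304 and 90.4 in knockout total RNA and 493 and 683 in knockout granules. It was 4.78-fold higher in control granules than in control total RNA (log2 2.26, SE 0.53, adjusted p = 0.0379), and knockout cells showed 1.57 (SE 0.52, adjusted p = 0.0712). The call in control cells was lost in 8 of 19 alternatives. Eif1a, an eIF1A gene that helps scan for the start codon, was at 31.6 and 59.3 CPM in control total RNA, 180 and 176 in control granules, 188 and 81.7 in knockout total RNA and 218 and 209 in knockout granules. It was 3.92-fold higher in control granules than in control total RNA (log2 1.97, SE 0.45, adjusted p = 0.0355). Its near copy Eif1ax was at 76.3 to 193 CPM, with a control granule-to-total difference of 0.89 (SE 0.29, adjusted p = 0.0885), and how reads shared by the pair were counted is not known. With the GC trend removed the difference was 1.09 (adjusted p = 0.00682) for Eif1a, 1.76 (adjusted p = 0.0105) for Eif5b and 1.66 (adjusted p = 0.00489) for Eif3a. Of the exonic bases of Eif5b, 16.8% lie under Rev1, and whether reads were counted by strand is not given in the sources used here.

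Eif1ad, a nuclear protein with an eIF1A-like domain, was at 135 and 129 CPM in control total RNA, 82.5 and 84.2 in control granules, 135 and 182 in knockout total RNA and 83.5 and 74.7 in knockout granules. It fell from knockout total RNA to knockout granules by 1.0 in log2 terms (SE 0.25, adjusted p = 0.0328), and the corresponding value in control cells was -0.66 (SE 0.25, adjusted p = 0.123). That call was lost in 10 of 19 alternatives. Of its exonic bases 15.3% lie under Banf1. Eif1, the guardian of start-codon choice, was at 987 and 1082, 630 and 690, 703 and 1096, and 749 and 725 CPM in the same order. Eif5a, the hypusine-bearing factor that helps ribosomes through difficult peptide bonds, was at 1808 and 1577, 1234 and 1415, 402 and 1400, and 648 and 609 CPM. Eif6, which keeps the large subunit apart from the small one, was at 478 and 412, 261 and 306, 95.4 and 400, and 265 and 282 CPM. Eif1, Eif5a and Eif6 were called in no comparison, and Eif5a and Eif6 each had a knockout total replicate 1 far below replicate 2. The lowest ratio difference between genotypes belonged to Eif5a2, the scarcer Eif5a paralog, at 3.19 and 7.64, 16.9 and 16.8, 25.9 and 6.57, and 5.76 and 4.89 CPM. That difference was -3.25 (SE 0.90, adjusted p = 0.104) and did not pass.

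From control total RNA to control granules 4 of 60 members rose (Eif5b, Eif3a, Eif1a and Eif4a2) and 0 fell, which is 6.67% against 10.1% of all 18952 genes tested (5.89% higher and 4.17% lower). None of them was an elongation factor. The granule pair lay wholly above the total pair for 22 members (36.7%, against 35.2% of all genes) and wholly below it for 25 (41.7%, against 37.3%). These shares were near the background. Median log2 differences were -0.13 for the elongation TOP genes, -0.46 for the other Eef genes, -0.07 for eIF2 and eIF2B, -0.18 for eIF3, 0.36 for eIF4 and 0.27 for the remaining Eif genes, beside -0.06 for all genes tested. The count of called members was 33 without knockout total replicate 1 and 29 without replicate 2, where 40.6% and 39.9% of all genes were called. It was 0 without any 1 of the other 6 libraries, where at most 2.02% of all genes were called.

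From knockout total RNA to knockout granules 2 members rose (Eef1akmt3 and Eif3j2) and 4 fell (Eef1e1, Eif2b1, Eef1a1 and Eif1ad). Together these were 10.0% of the members, against 17.6% of all genes tested, of which 9.17% were higher and 8.47% lower. All 12 tested eIF4 genes had a negative difference (median -0.40), as had 9149 of 18952 genes tested. None of the 12 was called and 5 reached an unadjusted p under 0.05 (41.7%, against 34.3% of all genes). Medians were -0.27 for the elongation TOP genes, -0.26 for eIF2 and eIF2B, -0.02 for eIF3 and 0.04 for all genes. Without knockout total replicate 1 or replicate 2 the count was 27 (34.0% and 48.2% of all genes), and without control total replicate 1 or 2 it was 3 (10.3% and 9.99%). Without control granule replicate 1 or 2 it was 2 (7.79% and 7.72%), and without knockout granule replicate 1 or 2 it was 0 (1.47% and 1.22%).

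Between knockout and control total RNA no member was called by edgeR's quasi-likelihood test, while 15 reached an unadjusted p under 0.05 (25%, against 24.8% of all genes) and DESeq2 called 4 (12% of all genes). These counts were at or below the background. Among all genes tested 0.412% were called, 0.274% higher and 0.137% lower. The highest member was Eif2s2 (1.95, SE 0.68, adjusted p = 0.161) and the lowest of at least 5 CPM was Eif2d (-0.97, SE 0.34, adjusted p = 0.163), a factor that helps load tRNA without eIF2, at 55.7 and 41.3 CPM in control and 17.4 and 32.2 CPM in knockout total RNA. Groups did not overlap for 12 members that were higher in the knockout (20%, against 24.4% of all genes) and 17 that were lower (28.3%, against 24.7%). The count of called members was 38 without knockout total replicate 2, where 47.8% of all genes were called, and 0 without any 1 of the other 7 libraries.

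Between knockout and control granules 1 member was higher (Eef1akmt3) and 3 were lower (Eif2s3x, Eif4b and Eif4g1), which is 6.67% against 9.45% of all genes tested. Lower calls made up 5.00% of members and 3.66% of all genes, and higher calls 1.67% and 5.79%. The lower calls were a subunit of eIF2, the eIF4G scaffold and a helicase activator. The knockout pair lay wholly below the control pair for 33 members (55.0%, against 36.6% of all genes) and wholly above for 14 (23.3%, against 40.4%). In all, 40 of 60 members had a negative difference, against 8820 of 18952 genes tested. The members' median was -0.31, beside 0.08 for all genes. The eIF4 genes were negative in 11 of 12 (median -0.73) and the elongation TOP genes in 5 of 5 (median -0.37). Medians were -0.39 for eIF2 and eIF2B, -0.22 for eIF3, 0.02 for the other Eef genes and -0.06 for the remaining Eif genes. The count of called members moved with the libraries that were fitted, and the cause was not tested. It was 37 when the granule libraries were fitted alone (57.3% of all genes), and 26 and 27 without knockout total replicate 1 and 2 (39.0% and 38.9%). It was 2 without control total replicate 1 or 2 (4.13% and 3.67%) and 0 without any 1 granule library (at most 0.433%). Mitochondrially encoded transcripts, at 6.16% and 8.81% of counts in knockout granules and 0.590% and 0.678% in control granules, moved with this comparison, and their part in it was not tested.

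The genotype difference in granule-to-total ratio was called for no member by edgeR's quasi-likelihood test, while 14 reached an unadjusted p under 0.05 (23.3%, against 25.8% of all genes) and DESeq2 called 10 (14% of all genes). Among all genes tested 0.517% were called, 0.401% higher and 0.116% lower. The eIF4 genes had the lowest median of the 6 lists (-0.96, negative in 11 of 12). The median was 0.09 for all genes tested (negative in 8968 of 18952) and -0.05 for the elongation TOP genes. The highest value was that of Eef1akmt3 (2.96, SE 0.73, adjusted p = 0.0938). The highest among members of at least 5 CPM was that of Eif2b4 (0.96, SE 0.43, adjusted p = 0.203). The count of called members was 13 without knockout total replicate 1 and 33 without replicate 2, where 18.6% and 46.4% of all genes were called, and 0 without any 1 of the other 6 libraries.

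**Figure D3:**
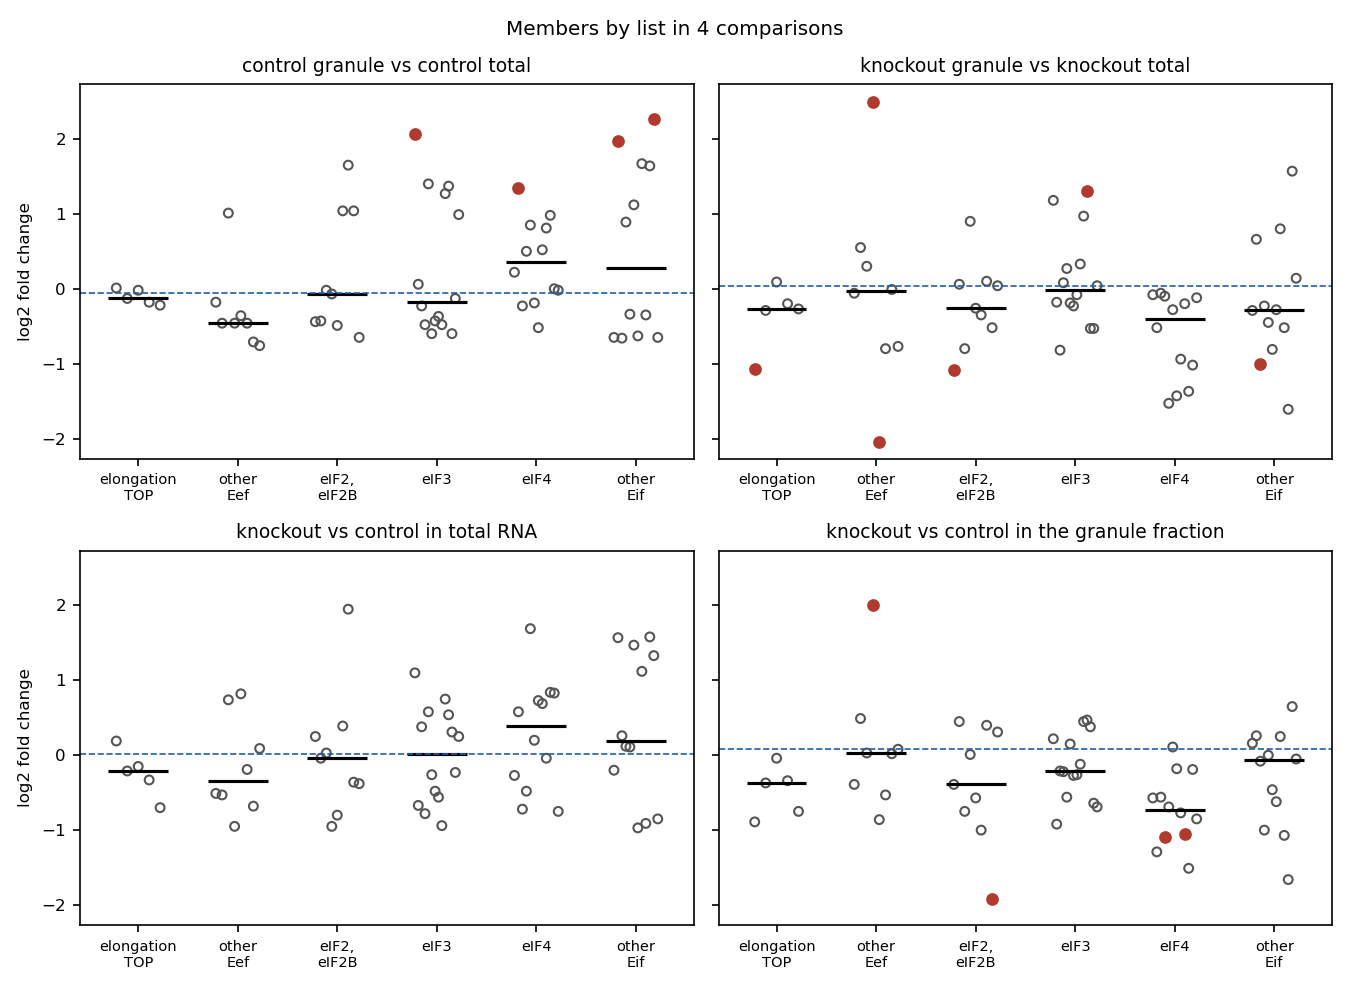
Log2 difference (vertical axis) of every tested member in 4 comparisons, by gene list (horizontal axis). Filled red points passed the test, open points did not, black lines are list medians and the dashed blue line is the median of all genes tested. Between knockout and control granules the eIF4 median is -0.73 and the elongation TOP median -0.37.

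The elongation TOP genes were set against the 35 tested genes of eIF2, eIF3 and eIF4 by the difference of their medians, over every way of pairing 1 library of each group. From control total RNA to control granules the elongation median was lower by 0.12 (difference -0.12, with -0.27 to -0.01 over 4 pairings). From knockout total RNA to granules the difference was -0.08 (-0.36 to 0.33), and both pairings with a positive value used knockout total replicate 1. Between knockout and control it was -0.24 (-0.90 to 0.28) in total RNA and 0.02 (-0.17 to 0.23) in granules. For the genotype difference in ratio it was 0.36 (-0.40 to 1.14 over 16 pairings). The control granule comparison alone kept 1 sign over its pairings, but its size equalled their SD (0.12), and with the eIF3 genes alone as comparator it was 0.04. With eIF2, eIF3 and eIF4 pooled, no difference from the elongation factors exceeded the spread over pairings. The eIF4 genes alone had a median of 0.36 (0.28 to 0.38 over pairings) from control total RNA to control granules. The elongation TOP genes had -0.13 (-0.33 to 0.11), a range that did not overlap it. In knockout cells the medians were -0.40 (-0.59 to -0.35) and -0.27 (-0.70 to 0.31). This contrast of lists was not tested. The pairings reuse the same libraries, so their range is a description of spread.

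Members that were higher in control granules than in control total RNA had a lower GC content and longer transcripts than those that were lower. The 22 members with the granule pair wholly above had a median GC content of 41.2% and a median transcript length of 3952 bases, and the 25 wholly below had 51.3% and 2323 bases. Across the 60 members Spearman's rho of the log2 difference with the GC content of the longest transcript was -0.602, beside -0.41 over 15380 protein-coding genes. The rho was -0.683 between knockout and control total RNA, 0.632 for the genotype difference in ratio, 0.026 between knockout and control granules and 0.0019 from knockout total RNA to granules. Points share all libraries of a comparison. The same property separated replicates of the total groups: the log2 difference between replicates had a rho of 0.794 with GC content in control total RNA and -0.673 in knockout total RNA (55 members), and of -0.242 and 0.0367 in control and knockout granules. The genotype comparison within granules was the only genotype comparison in which the members' differences did not follow GC content. Over the 15380 protein-coding genes, however, the rho in that comparison was 0.201. Over the same genes it was -0.533 between genotypes in total RNA, 0.524 for the difference in ratio and 0.218 from knockout total RNA to granules. List medians of GC content were close, at 48.0% for elongation TOP, 46.8% for eIF2 and eIF2B, 49.7% for eIF3 and 50.2% for eIF4, beside 50% for all protein-coding genes. Median transcript lengths were less alike, at 1939, 3114, 2446 and 3473 bases in the same order, beside 3273. The members' rho with transcript length was 0.519 from control total RNA to control granules and -0.11 in knockout cells. Between genotypes it was 0.46 in total RNA, -0.225 in granules and -0.566 for the difference in ratio. The part of base composition in these results was not tested beyond the values with the GC trend removed, and that of transcript length was not tested.

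**Figure D4:**
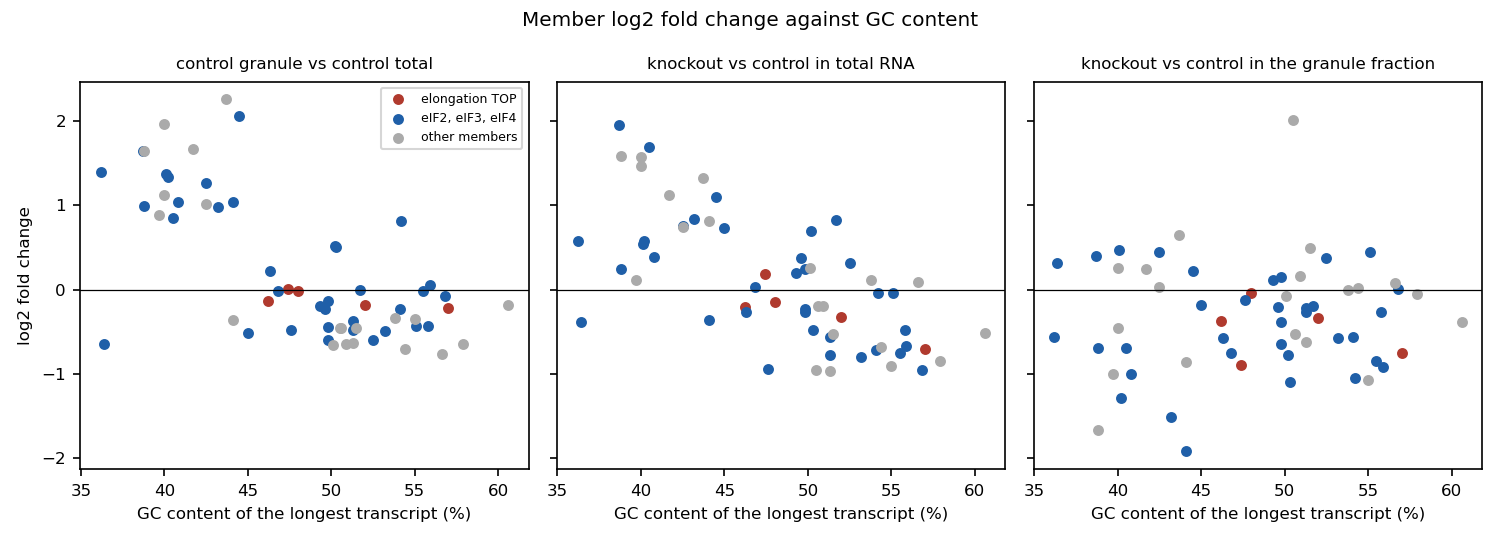
Log2 difference (vertical axis) against GC content of the longest annotated transcript in percent (horizontal axis), 1 point per tested member, for 3 comparisons. Red points are elongation TOP genes, blue points eIF2, eIF3 and eIF4 genes and grey points the other members. The points slope downward from control total RNA to control granules (rho -0.602) and show no slope between knockout and control granules (rho 0.026).

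A list of 32 genes that regulate these factors or recycle ribosomes was followed beside them, all of which were tested. From control total RNA to control granules 2 rose and 2 fell, which is 12.5% against 10.1% of all genes (median 0.53, beside -0.06 for all genes). Ddx3x, a helicase that assists initiation, was at 91.1 and 172 CPM in control total RNA and 685 and 642 in control granules (log2 2.34, SE 0.38, adjusted p = 0.0145). Bzw1, an eIF5 mimic, rose by 1.30 (SE 0.32, adjusted p = 0.0415). Ppp1r15a, the stress-induced subunit that directs dephosphorylation of eIF2, was at 617 and 593 CPM in control total RNA and 161 and 163 in control granules (log2 -1.90, SE 0.28, adjusted p = 0.0108). Mknk1, a kinase of eIF4E, fell by 1.16 (SE 0.25, adjusted p = 0.0285). From knockout total RNA to granules 1 rose (Abcf1, 0.95) and 4 fell (Eif4ebp2, Mknk1, Ppp1r15a and Hbs1l), which is 15.6% against 17.6% of all genes, with a median of -0.57.

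Between knockout and control granules 1 gene of that list was higher and 3 were lower, which is 12.5% against 9.45% of all genes, with a median of -0.40. Eif2ak2, the double-stranded RNA kinase that phosphorylates eIF2, was at 61.3 and 61.7 CPM in control granules and 219 and 257 in knockout granules (log2 1.95, SE 0.47, adjusted p = 0.0405). It was also at 189 and 78.7 CPM in knockout and 27.8 and 53.2 CPM in control total RNA. Eif4ebp2, which sequesters eIF4E, was at 82.3 and 69.8 CPM in control granules and 30.4 and 28.1 in knockout granules (-1.38, SE 0.25, adjusted p = 0.0176). Bzw1 (-1.35, adjusted p = 0.0383) and Dhx29, a helicase for structured leaders (-1.22, adjusted p = 0.0382), were the others. Larp1, the TOP-binding protein, was at 369 and 416 CPM in control total RNA, 866 and 804 in control granules, 1195 and 488 in knockout total RNA and 550 and 585 in knockout granules, and was called in no comparison. None of the 32 was called by edgeR in total RNA or for the difference in ratio. An unadjusted p under 0.05 was reached by 7 (21.9%, against 24.8% of all genes) and 12 (37.5%, against 25.8%).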

How the data were processed

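RNA sequencing of 8 libraries in 4 groups was analysed from 1 table of raw read counts per Ensembl gene, 1 column per library, as the authors deposited it. Per the submitters' processing notes the tools included STAR and DESeq2 and the build was GRCm38 (mm10). The counting program, strand setting and annotation release are not given in the sources used here. Columns were joined to samples by genotype, fraction and replicate number. Of 39017 identifiers 37607 matched GENCODE M21.

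Counts were scaled by TMM and fitted with edgeR 4.0.16 (R 4.3.3) with 1 mean per group over all 8 libraries, leaving 4 residual degrees of freedom. Genes were filtered by filterByExpr (18952 tested), contrasts tested by the robust quasi-likelihood F-test and p-values adjusted by Benjamini-Hochberg over all genes. A gene was called at an adjusted p under 0.05. Levels are TMM-scaled CPM. The procedure was run on simulated data that held no GC trend and no discordant replicates, so that run does not bear on those features of the libraries.

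Members and lists were chosen with earlier results of these data known. Values per library are given for the elongation TOP genes, a set list of initiation factor genes, every called member (up to 8 per comparison) and the extremes of each comparison among members of at least 5 CPM. Gene starts came from the RefSeq promoter table of GRCm38.p6. Alternatives used DESeq2 1.42.0, limma 3.58.1, other scalings and filters, a replicate block, removal of a lowess trend on GC content (span 0.3) and each library left out.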

Additional observations from a re-analysis of the deposited data

How the results depend on the processing

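With 2 libraries per group, counts of called members moved widely with the fit. As the groups compared did not overlap for any of the 14 calls, a kept sign was likely beforehand. None changed sign under its 18 or 19 alternatives. Eef1e1 lost its call in 3 of them, Eif2s3x in 4, Eif3a, Eif1a and Eif2b1 in 7, Eif5b in 8, Eef1a1, Eif1ad, Eif3j2, Eif4b and Eif4g1 in 10 and Eif4a2 in 12. Eef1akmt3 lost its call in 4 within knockout cells and in 8 between granules. The cause was not tested. Percentages in parentheses are the share of all genes called by the same fit, which moved with the members' counts. From control total RNA to granules (4 called) DESeq2 called 17 (21.3%), no filter 15 (13.2%), the GC trend removed 7 (19.9%), voom with quality weights 30 (39.3%) and the groups compared alone 29 (42.4%), and leaving out 1 library gave 0 to 33. From knockout total RNA to granules (6 called) the values were DESeq2 18 (26.9%), no filter 15 (17%), a minimum of 5 CPM 3 (17%), the GC trend removed 20 (31.8%), voom 2 (5.69%), the groups compared alone 0 (0%) and 1 library left out 0 to 27. Between genotypes in total RNA (0 called) DESeq2 called 4 (12%), no filter 8 (11.2%) and 1 library left out 0 to 38. In granules (4 called) upper-quartile factors gave 2 (9.57%), library size alone 1 (8.21%), DESeq2 12 (17.8%), no filter 12 (11.2%), a minimum of 5 CPM 1 (7.92%), the GC trend removed 17 (23%), voom 35 (55.2%), the groups compared alone 37 (57.3%) and 1 library left out 0 to 27. For the difference in ratio (0 called) DESeq2 gave 10 (14%), no filter 13 (11.5%), the GC trend removed 5 (8.92%), voom 3 (3.92%) and 1 library left out 0 to 33.

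Between groups, correlations of same-numbered replicates' deviations from their group means ran from -0.254 to 0.0954. With 2 replicates per group, they cannot show whether same-numbered samples were prepared together. With the number as a replicate block the members called were 0 (3.07%) and 2 (10%) for granules against total RNA in control and knockout cells and 1 (3.54%) between genotypes in granules. With the replicate block and the GC trend removed together they were 18 (27.3%) in knockout cells, 11 (18.9%) between genotypes in granules and 1 (3.21%) for the difference in ratio.

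The median of the elongation TOP genes minus that of eIF2, eIF3 and eIF4 became 0.04 in control cells with eIF3 alone as comparator, and 0.19 between genotypes in granules under a minimum of 5 CPM, applied to all genes or to the comparator. With 1 library left out it ran from -0.20 to -0.02 in control cells, -0.23 to 0.27 in knockout cells, -0.69 to 0.13 between genotypes in total RNA, -0.02 to 0.17 in granules and -0.16 to 0.67 for the difference in ratio. The value of 0.27 came without knockout total replicate 2 and that of -0.16 without knockout total replicate 1.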
